A study of Mus musculus with 9 samples.

Results

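The comparison set 3 Shmt1 mutant colons against 3 wild-type colons, out of 9 mouse arrays in the series. Its members were taken by their sample titles, which name the genotype at cSHMT, and all probe sets other than the array's own controls were read. Each array held RNA from the proximal end of 1 flushed colon, and the labels call the samples of a genotype biological replicates. All mice, wild-type ones included, came from 10 generations of backcrossing to C57Bl/6 and were weaned at 3 weeks onto AIN-93G diet minus folate and choline. They were 9 weeks old; one label puts the diet at 6 weeks and another at 5 weeks. The other 3 arrays were from heterozygous colons; they entered the fit only to estimate the spread and are given beside some results. The labels state neither how the mutant allele was made nor the sex of the mice, and no group on a diet with folate was analysed here, so every difference below is between genotypes under folate and choline lack.

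Shmt1 encodes cytosolic serine hydroxymethyltransferase, which moves a carbon unit from serine to tetrahydrofolate. The methylene-tetrahydrofolate it yields can be used by thymidylate synthase to make the thymine base of DNA, or be reduced for the remethylation of homocysteine to methionine. When folate is short, uracil can be built into DNA in place of thymine, and cells that divide often, such as those of the colon crypts, need most thymidylate. The design text of the series names the pairwise comparison of mutant with wild-type colons, that is, which transcripts depend on the Shmt1 genotype under this diet.

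Of the array's 22690 probe sets, 13576 passed the brightness limit and were tested. The deposited values are linear signals; fold changes were computed as log2 of the signal plus 16 after quantile normalization, and 3 arrays a group limit their precision. The tissue label fitted the markers: Car1, a carbonic anhydrase of surface colonocytes, had signals of 4900.9 to 6914.9 in mutant colons and 5489.1 to 7366.3 in wild-type colons, and 16 of 18 named absorptive colonocyte markers were bright enough to be tested. Fabp6, an ileal bile acid carrier, was also bright, at 2517.3 to 3970.1 in mutant and 3066.6 to 3174.5 in wild-type colons. None of 9 named neutrophil markers passed the brightness limit. Within each genotype the array numbered 1 gave the largest beta-actin ratio, the 3' signal over the 5' signal, a measure of how far the labelled RNA was shortened. It was 4.839, 3.753 and 2.73 in the mutant colons numbered 1 to 3, against 5.017, 3.152 and 2.519 in the wild-type colons.

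Over all genes the mutant and wild-type colons differed little. Only 3 probe sets (0.0221% of those tested) passed a Benjamini-Hochberg adjusted p of 0.05 in limma, and all 3 fell in mutant colons. Without adjustment, 521 probe sets (3.84%) had a p under 0.05, 260 higher and 261 lower in mutant colons, where 679 would be expected by chance. The 3 mutant values did not overlap the 3 wild-type values in 1143 probe sets (8.42%), 574 higher (4.23%) and 569 lower (4.19%) in mutant colons. The larger of these non-overlapping differences lay more often on the lower side: past 2-fold there were 13 lower and 1 higher, and past 1.5-fold 43 lower and 22 higher.

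**Figure D1:**
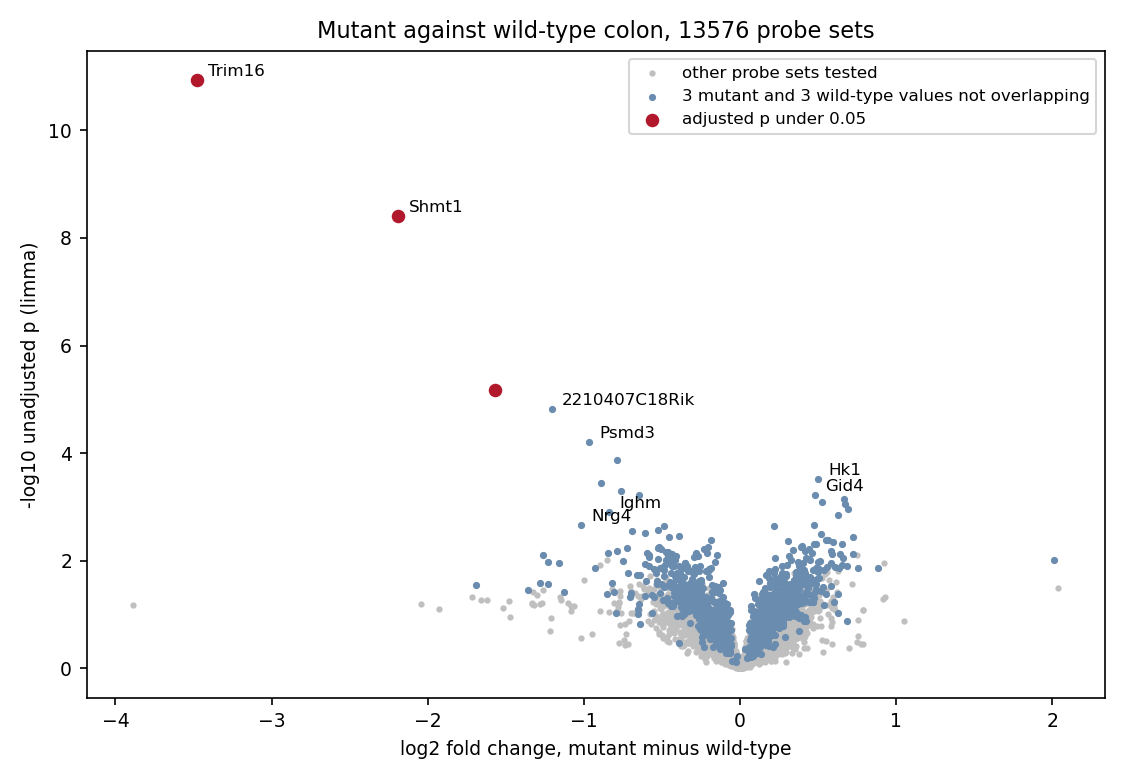
Log2 fold change of mutant minus wild-type colons (horizontal axis) against -log10 of limma's unadjusted p (vertical axis) for 13576 probe sets. The 3 red points passed an adjusted p of 0.05 and all lie on the lower side; blue points are the probe sets whose 3 mutant and 3 wild-type values do not overlap.

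Shmt1 was read by 4 probe sets and was lower in every mutant colon than in every wild-type colon on each. On the probe set that differed most, the signals were 116.9, 120 and 113.1 in mutant, 297.9, 274.4 and 337 in heterozygous and 564.3, 575.7 and 644.1 in wild-type colons. The 3 genotypes did not overlap there, and Shmt1 fell to 19.6% of the wild-type mean signal in mutant colons (log2 fold change -2.19, SE 0.134, adjusted p = 2.64e-05). On a second probe set the signals were 168.6, 194.8 and 195.2 in mutant and 332.4, 368.9 and 305.9 in wild-type colons (log2 fold change -0.79, SE 0.139, adjusted p = 0.309). On the third they were 246.3, 287.4 and 241.4 in mutant and 529.3, 463.3 and 487.9 in wild-type colons (log2 fold change -0.89, SE 0.176, adjusted p = 0.596). So these probe sets read 55.5% and 52.4% of the wild-type mean, well above the 19.6% of the first, and neither passed. The fourth was too dim to be tested, with signals of 9.9, 4 and 3.8 in mutant and 22.4, 27 and 23 in wild-type colons. Which part of the transcript each probe set reads, or where the mutation lies relative to it, was not analysed here.

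Trim16, a member of the tripartite motif family with ubiquitin ligase activity, had the largest fold change of the probe sets that passed. Its signals were 62.4, 70 and 65.4 in mutant, 487.6, 649.4 and 593.7 in heterozygous and 881.4, 866.6 and 975.3 in wild-type colons. The 3 genotypes did not overlap, and all mutant signals were below 75.5, the limit that a probe set's mean over all arrays had to reach. Trim16 fell 11.1-fold on this probe set (log2 fold change -3.47, SE 0.125, adjusted p = 1.59e-07), a size that depends on the constant added to dim signals: the log2 fold change was -3.74 with 1 added and -2.89 with 64 added. A second Trim16 probe set read 165.9, 140.2 and 87.6 in mutant and 217.7, 217.9 and 268.5 in wild-type colons, also without overlap, but its log2 fold change of -0.79 did not pass. Of the 22 genes of the TRIM family measured on probe sets with 1 gene symbol, Trim16 alone passed. Trim21, an intracellular antibody receptor, had a log2 fold change of -0.21, Trim30a, an interferon-induced member, one of -1.10, and the family's median was -0.03.

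The last probe set that fell is annotated with more than 1 gene, one of them of the TRIM family, so no name is given. Its signals were 203.8, 148.7 and 239.5 in mutant, 447.8, 579.8 and 535.6 in heterozygous and 427.6, 635.4 and 814.6 in wild-type colons (log2 fold change -1.57, SE 0.198, adjusted p = 0.0306). Mutant colons lay apart from all others there, while heterozygous and wild-type colons overlapped. Its call was lost without mutant replicate 1, 2 or 3 or wild-type replicate 2 or 3, and in 4 of the 12 other alternatives.

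**Figure D2:**
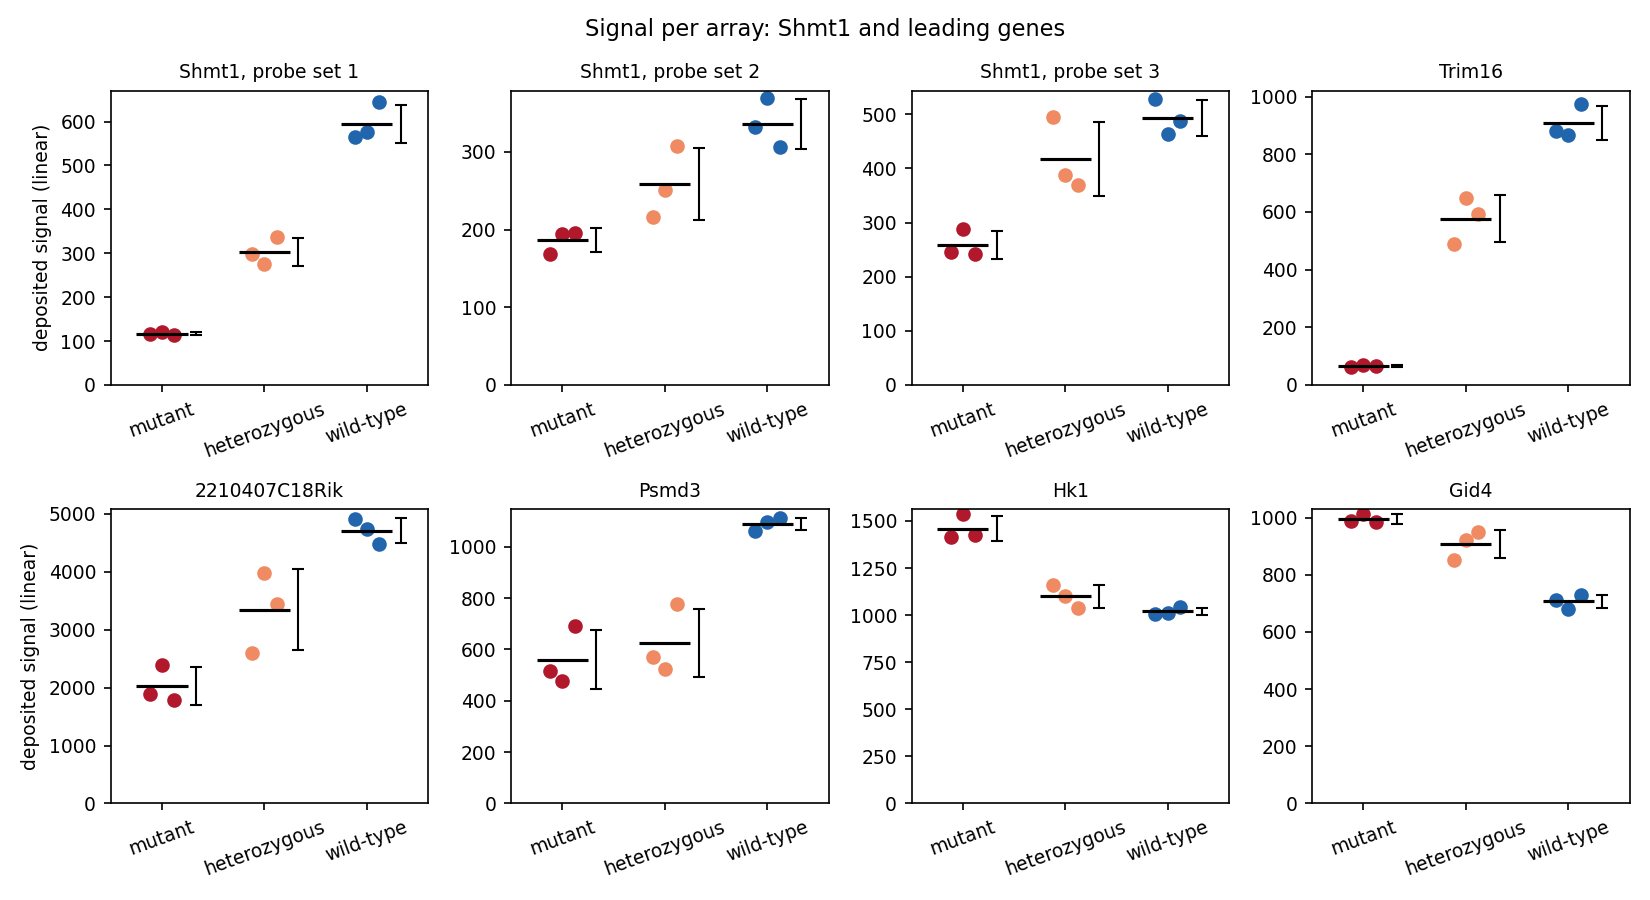
Deposited linear signal (vertical axes, each from 0) of the 3 tested Shmt1 probe sets, Trim16, 2210407C18Rik, Psmd3, Hk1 and Gid4 in mutant, heterozygous and wild-type colons. Points are arrays, bars the mean, and brackets the SD over 3 arrays; mutant and wild-type arrays do not overlap in any panel, and only Shmt1 on its first probe set and Trim16 passed an adjusted p of 0.05.

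Behind these came genes that missed the threshold. The uncharacterized gene 2210407C18Rik read 1886.2, 2393.2 and 1783.4 in mutant, 2598.7, 3985.6 and 3442.1 in heterozygous and 4904.9, 4736.5 and 4476.3 in wild-type colons. That is 42.9% of the wild-type mean in mutant colons, with heterozygous colons between (log2 fold change -1.21, SE 0.167, adjusted p = 0.0522); the call was made in 6 of 12 alternatives and in none of the 6 that leave out an array. Psmd3 belongs to the regulatory particle of the proteasome and read 515.1, 475.4 and 690.7 in mutant, 572.4, 525.1 and 777.2 in heterozygous and 1061.5, 1095.1 and 1110.6 in wild-type colons. Mutant and heterozygous colons overlapped and both lay below wild-type (log2 fold change -0.96 in mutant colons, adjusted p = 0.171). The 31 proteasome subunits had a median log2 fold change of -0.04, 20 lower and 11 higher. Of them 4 did not overlap (12.9%, against 8.42% of all probe sets), with Psmd13, another regulatory particle subunit, at -0.39 and Psmb4, of the core particle, at 0.20.

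Sla, an adaptor that damps antigen receptor signalling, read 128.5, 133.3 and 125.2 in mutant and 211, 239.1 and 246.2 in wild-type colons (log2 fold change -0.76, adjusted p = 0.742). Nrg4, an EGF family ligand of ErbB4, read 38.8, 99.4 and 83.2 in mutant and 176.1, 186.1 and 118.7 in wild-type colons (log2 fold change -1.02). Neither pair of groups overlapped, and heterozygous colons reached the wild-type values in both genes. The log2 fold changes of Bcl6, a transcriptional repressor of germinal centre B cells, Wipi2, an autophagy protein, and Oser1, an oxidative stress response gene, were -0.48, -0.61 and -0.39; a brighter Wipi2 probe set was at 0.01. Fmo2, a flavin-containing monooxygenase, was on opposite sides of wild-type in mutant and heterozygous colons: 86.5, 90 and 119.1 in mutant, 246.6, 222.9 and 267.3 in heterozygous and 135.2, 167.8 and 147.3 in wild-type colons (log2 fold change -0.52 in mutant colons). Upp1, which splits uridine to uracil, read 346.4, 225.1 and 296.6 in mutant and 569, 541 and 559.7 in wild-type colons (log2 fold change -0.93). Adjusted p-values of Nrg4, Bcl6, Wipi2, Oser1, Fmo2 and Upp1 were 0.998.

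On the higher side, Hk1 and Gid4 came first. Hk1, a hexokinase that starts glycolysis, read 1413.2, 1537 and 1427.4 in mutant, 1160.7, 1103.2 and 1037.2 in heterozygous and 1007.8, 1012.9 and 1041.9 in wild-type colons. It was 1.42-fold higher in mutant colons (log2 fold change 0.50, SE 0.097, adjusted p = 0.587), and the mutant arrays lay above all 6 others. The 16 measured genes of glycolysis as a list had a median log2 fold change of 0.02. Gid4, the substrate receptor of a ubiquitin ligase that in yeast degrades gluconeogenic enzymes, read 988.7, 1013.7 and 983.7 in mutant, 853.1, 920.4 and 948.2 in heterozygous and 711.7, 681.8 and 728.2 in wild-type colons (log2 fold change 0.48, adjusted p = 0.742). On a second Gid4 probe set the log2 fold change was 0.53.

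Several genes on this side had means in heterozygous colons close to or above those in mutant colons. Poldip3, a messenger RNA export and translation factor, read 345.8, 353.7 and 407.5 in mutant, 417.2, 445.2 and 334.9 in heterozygous and 210.9, 240.4 and 228.5 in wild-type colons. Hnrnpr, an RNA-binding protein, read 954.6, 773.8 and 839.1 in mutant, 872.3, 916.6 and 968.2 in heterozygous and 535.3, 636.5 and 643.8 in wild-type colons. Both were lowest in wild-type, with log2 fold changes of 0.66 and 0.47 in mutant colons. Calr, a chaperone of the endoplasmic reticulum, and Bcl9, a Wnt co-activator, had log2 fold changes of 0.49 and 0.65 and were likewise lowest in wild-type. Ino80b, a subunit of a chromatin remodeller, averaged 175 in mutant, 169 in heterozygous and 109.7 in wild-type colons (0.63). None passed. Other probe sets of Poldip3 had log2 fold changes of 0.14 to 0.40, those of Hnrnpr 0.05 and 0.25, and those of Calr 0.12 and 0.19. The largest non-overlapping value on this side was that of an immunoglobulin segment, Igkv15-103 (log2 fold change 2.01, SE 0.645). It read 245, 530.3 and 361.9 in mutant and 35, 89.6 and 136.1 in wild-type colons. Heterozygous colons read 63.3, 195.6 and 838.9, from within the wild-type range to above every mutant. A kappa chain probe set, Igk, went the other way, with 129.6, 78.3 and 55.2 in mutant and 588.5, 160.6 and 321 in wild-type colons (-1.69). A far brighter Igk probe set averaged 6187.6 in mutant and 7030 in wild-type colons, with overlap (-0.13). The 8 probe sets named Ighm spanned log2 fold changes of -3.89 to 0.79, so immunoglobulin probe sets did not move together.

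Shmt1 lies on chromosome 11, and 7 of the 15 genes ranked first on the lower side and 2 of the 15 on the higher side do too, against 8.42% of tested probe sets with 1 gene symbol. They are Trim16, Shmt1, 2210407C18Rik, Psmd3, Galnt10, which starts mucin-type glycosylation, Anxa6, a membrane-binding annexin, and Tom1l2, a vesicle sorting protein, on the lower side. On the higher side they are Gid4 and B9d1, a protein of the primary cilium. Brighter probe sets of Galnt10 and Anxa6 had log2 fold changes of 0.20 and -0.01, against -0.65 and -0.69 on those ranked, and the deposited signals of the Anxa6 probe set ranked here overlapped. In the order of the genes named on the array, Gid4 and Tom1l2 are 7 and 10 genes before Shmt1, B9d1 and Trim16 are 15 and 29 genes after it, and Irgm2 and 2210407C18Rik are 39 and 34 before it. Psmd3 is 414 genes away. Of the 13 measured genes among the 20 nearest, 10 were lower and 3 higher in mutant colons, and their median log2 fold change was -0.04; Dhrs7b, next to Shmt1, had one of 0.28.

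Within 60 array genes on either side, a window chosen after the values were seen, 17 of 82 genes other than Shmt1 (20.7%) did not overlap between mutant and wild-type colons. Farther along the chromosome the share was 8.72% of 619 genes, and on the other chromosomes 8.0% of 7500. The 17 went both ways, 9 lower and 8 higher, among them Mrpl55, a mitochondrial ribosomal protein, at -0.33 and Hand1, a transcription factor, at 0.59. Besides Trim16 and Shmt1 itself none of them passed. Probe sets with several gene symbols were given no place on a chromosome. The unnamed probe set that passed is therefore in none of these counts, and its place was not read. The labels give 10 generations of backcrossing and not the strain in which the allele was made; the part of linked sequence in these values was not tested.

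**Figure D3:**
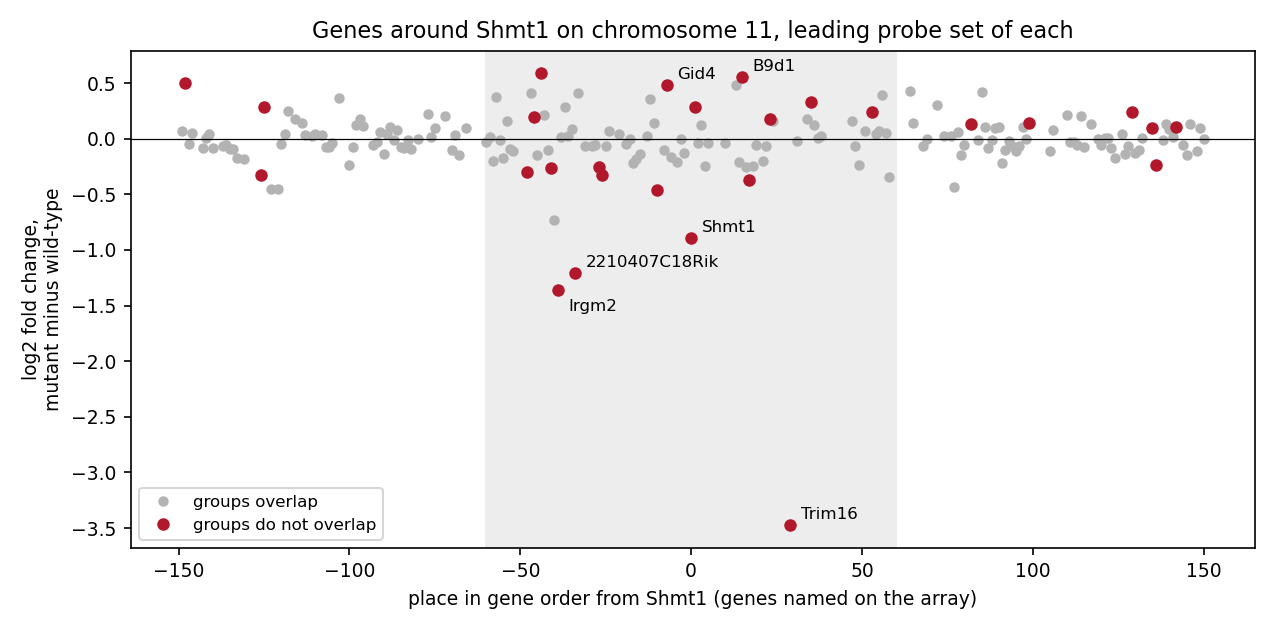
Log2 fold change of mutant minus wild-type colons (vertical axis) by place in the order of array genes from Shmt1 at 0 (horizontal axis), 1 point per gene on its brightest tested probe set. Red points are genes whose groups do not overlap; 17 of 82 lie so in the shaded window of 60 genes on either side, against 8.72% of those farther away on the chromosome, and Trim16 and 2210407C18Rik stand lowest together with Irgm2.

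Beyond Shmt1, the folate pathway showed no gene that passed. Of 13 measured genes, Shmt1 included, 6 were higher and 7 lower, and the median log2 fold change was -0.03. Ggh, which trims folate polyglutamates, read 1148.9, 1072.1 and 945.5 in mutant and 714.7, 834.8 and 939 in wild-type colons (log2 fold change 0.32, SE 0.132, adjusted p = 0.998). Shmt2, the mitochondrial isozyme, read 146.8, 184.9 and 159.5 in mutant and 158.3, 122.6 and 140.9 in wild-type colons, overlapping values with a log2 fold change of 0.21. Aldh1l1, which oxidizes formyl-tetrahydrofolate, and Gart, which spends it in purine synthesis, had log2 fold changes of -0.36 and -0.21. A dimmer Gart probe set was at 0.30. Tyms, the thymidylate synthase that draws on the same folate, was too dim to be tested on its 3 probe sets, with signals of 1.2 to 25.4 in mutant and 0.5 to 24.5 in wild-type colons.

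The pathways that folate feeds were near wild-type levels as well. The 24 measured genes of nucleotide synthesis and salvage had a median log2 fold change of 0.04, with 2 that did not overlap (8.33%, against 8.42% of all probe sets). Tk1 and Dck, which salvage thymidine and deoxycytidine, had log2 fold changes of 0.28 and 0.43. A dimmer Dck probe set was at 0.11, and Upp1, of the same list, was lowest at -0.93. The 15 genes of the methionine cycle and methyl transfer had a median of 0.02, and Ahcyl2, a relative of S-adenosylhomocysteine hydrolase, was at 0.22. Bhmt, of the same list, was too dim on average to be tested. It read 82.1, 144.9 and 78.5 in mutant, 46.5, 51.7 and 29.7 in heterozygous and 55, 38.4 and 42.2 in wild-type colons. Bhmt2, dimmer still, went the other way on 1 probe set, with 13, 16.3 and 11.8 in mutant and 24.8, 37.8 and 20.4 in wild-type colons, and overlapped on another. Dnmt1, the maintenance DNA methyltransferase, was at -0.11, and at 0.11 on a dimmer probe set. The 16 genes of choline and phosphatidylcholine synthesis had a median of -0.05, and none of them separated the groups. For the 14 genes of uracil excision and DNA repair it was 0.09. Ung, the uracil DNA glycosylase, read 1005.7, 868.5 and 1050.6 in mutant and 888.9, 787.1 and 880.1 in wild-type colons, overlapping values with a log2 fold change of 0.18. Apex1, the abasic site nuclease, and Xrcc1, a scaffold of base excision repair, were at 0.29 and 0.43. The p53 response had a median of -0.03 over 16 genes, and serine synthesis with the ATF4 response -0.08 over 17. No gene of these lists passed.

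Genes of mitosis tended to be higher in mutant colons, though none passed. Of 22 measured, 21 had a log2 fold change above 0, where 51% of all probe sets did. All 3 mutant values lay above all 3 wild-type values in 6 (27.3%, against 4.23% of all probe sets), and 7 had an unadjusted p under 0.05 on the higher side, against 1.92%. The median was 0.26, and 0.05 in heterozygous against wild-type colons. Cenpf, a kinetochore protein, read 412.9, 329 and 375.4 in mutant and 211.3, 208.9 and 231.5 in wild-type colons (log2 fold change 0.73, SE 0.198). Cdc20, which switches on the ligase that ends metaphase, read 548.3, 412.4 and 507.4 in mutant and 302.7, 291.9 and 319.9 in wild-type colons (0.64, SE 0.197). Ccnb2, a mitotic cyclin, read 602.6, 592.9 and 675.2 in mutant and 436, 460.7 and 461 in wild-type colons (0.44, SE 0.141). In these genes the groups did not overlap and each had an adjusted p of 0.998. Nek2, a centrosome kinase (0.57), and Plk1, a mitotic kinase (0.53), did not overlap either.

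The mean log2 level of the mitosis list was 8.81, 8.37 and 8.69 in mutant colons 1 to 3 and 8.20, 8.39 and 8.38 in wild-type colons. Mutant 2 thus lay within the wild-type range. Without the 3 arrays numbered 1, which had the highest beta-actin ratios, the median was 0.09 with 16 of 22 above 0; their part in the result was not tested. The median was 0.17 without mutant replicate 1, 0.17 without wild-type replicate 1 and 0.40 without mutant replicate 2. The 20 genes of DNA replication licensing, active in the preceding S phase, had a median of 0.09, with 16 above 0. None of them separated the groups, where 8.42% of all probe sets did. Without mutant replicate 1 that median was 0.01, with 10 of 20 above 0, and without wild-type replicate 1 it was 0.24.

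Many promoters of mitosis genes hold a CCAAT box and the cell cycle genes homology region, bound by NF-Y and by the MuvB complexes. In RefSeq windows from 250 bases before to 50 after the start (build GRCm38.p6), 19 of the 22 genes matched, with 20 windows. The letters CCAAT, on either strand, were in 17 of those windows against 37.4% of all 32851, and TTTGAA, the core of the homology region, in 16 against 17.9%. The windows of Cdc20 and Ccnb2 are shown as examples of genes that had both motifs and separated the groups, as Cenpf did too. Both are written 5′ to 3′ along the gene, with CCAAT and TTTGAA in capitals where they lie on either strand; the motifs do not overlap.
Cdc20 promoter (chr4:118437294-118437593, minus strand): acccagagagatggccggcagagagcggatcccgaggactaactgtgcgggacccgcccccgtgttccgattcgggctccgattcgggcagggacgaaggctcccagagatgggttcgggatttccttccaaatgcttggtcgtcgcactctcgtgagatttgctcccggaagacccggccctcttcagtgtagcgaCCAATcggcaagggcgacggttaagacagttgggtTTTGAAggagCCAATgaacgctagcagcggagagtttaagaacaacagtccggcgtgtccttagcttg
Ccnb2 promoter (chr9:70421505-70421804, minus strand): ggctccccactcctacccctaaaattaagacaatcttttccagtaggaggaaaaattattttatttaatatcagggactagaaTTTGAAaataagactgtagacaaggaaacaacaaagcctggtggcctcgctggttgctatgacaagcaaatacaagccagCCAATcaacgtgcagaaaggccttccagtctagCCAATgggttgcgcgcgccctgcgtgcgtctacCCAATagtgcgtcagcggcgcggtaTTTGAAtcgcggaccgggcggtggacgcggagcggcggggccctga

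Genes induced by interferon lay lower in mutant colons as a group, but they varied so much between mice that none passed. Of 23 measured, 22 had a log2 fold change below 0, where 49% of all probe sets did, and the median was -0.73. No member separated the normalized values of the groups, where 8.42% of all probe sets did. The steepest were Usp18, which removes the ubiquitin-like protein ISG15, at -1.66, Rtp4, a chaperone of receptors, at -1.51, and Oas2, a sensor of double-stranded RNA, at -1.47. Usp18 read 311.2, 56.3 and 58.2 in mutant, 23.2, 427.1 and 119.7 in heterozygous and 410.9, 280.5 and 440.5 in wild-type colons. Mutant 1 lay within the wild-type range and mutants 2 and 3 far below it, while heterozygous 1 was the lowest of all arrays. Ifit3, an antiviral protein, read 292.6, 147.8 and 110.6 in mutant and 555.7, 324.6 and 355.6 in wild-type colons (log2 fold change -1.16, SE 0.517, adjusted p = 0.998). Bst2, the tether of enveloped virions, read 234.7, 167.9 and 160.4 in mutant and 325.8, 261.4 and 319 in wild-type colons (-0.65, SE 0.289). Mx1, an antiviral GTPase, read 283.6, 151.3 and 209.7 in mutant and 338.9, 308.7 and 399.8 in wild-type colons (-0.70, SE 0.293). In deposited signal, though not after normalization, the groups did not overlap for Ifit3, Bst2, Mx1 and Ifi35, 4 of the 23, against 2.95% of all probe sets on the lower side (4.04% on the higher side, 6.99% in all). Irgm2, an immunity-related GTPase that is not on the list, read 480, 185.6 and 209.4 in mutant and 658.6, 620.4 and 847.5 in wild-type colons (-1.36, SE 0.566).

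The interferon list's mean log2 level was 9.43, 8.21 and 7.99 in mutant, 7.57, 9.46 and 8.48 in heterozygous and 9.79, 9.13 and 9.18 in wild-type colons. The lowest of the 9 arrays were heterozygous 1, mutant 3 and mutant 2. The median was -1.20 without mutant replicate 1, -0.50 without mutant replicate 3 and -0.90 without the 3 arrays numbered 1. In heterozygous against wild-type colons, which share the wild-type arrays, it was -0.87.

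Promoters of interferon-induced genes often hold an interferon-stimulated response element. In the same RefSeq windows, 18 of the 23 genes matched with 20 windows, and 13 of these held GAAA, any 2 bases and GAAA on either strand, against 3.44% of all windows. The windows of Ifit3, Bst2 and Irgm2 are shown because these genes separated the deposited signals of the groups and hold the motif. They are written 5′ to 3′ along the gene with the motif or its reverse complement in capitals. In Ifit3 it stands in 2 places, and in Bst2 2 copies overlap and share the middle letters.
Ifit3 promoter (chr19:34583279-34583578, plus strand): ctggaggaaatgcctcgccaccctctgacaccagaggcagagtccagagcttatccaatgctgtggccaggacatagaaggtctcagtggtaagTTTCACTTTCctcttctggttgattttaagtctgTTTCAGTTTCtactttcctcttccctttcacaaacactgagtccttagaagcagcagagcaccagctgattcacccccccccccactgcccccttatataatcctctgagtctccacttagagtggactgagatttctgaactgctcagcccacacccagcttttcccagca
Bst2 promoter (chr8:71537423-71537722, minus strand): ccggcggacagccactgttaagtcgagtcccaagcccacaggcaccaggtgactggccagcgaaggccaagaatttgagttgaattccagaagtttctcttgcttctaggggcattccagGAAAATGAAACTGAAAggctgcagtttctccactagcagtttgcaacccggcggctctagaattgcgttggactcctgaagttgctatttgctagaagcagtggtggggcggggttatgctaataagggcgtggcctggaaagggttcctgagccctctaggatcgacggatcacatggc
Irgm2 promoter (chr11:58214727-58215026, plus strand): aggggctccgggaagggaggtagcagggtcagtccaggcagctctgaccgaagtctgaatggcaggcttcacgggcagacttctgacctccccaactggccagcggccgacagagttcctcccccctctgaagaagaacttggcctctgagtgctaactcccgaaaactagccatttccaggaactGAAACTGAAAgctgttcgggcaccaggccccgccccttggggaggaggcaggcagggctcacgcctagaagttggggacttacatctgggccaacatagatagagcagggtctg

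Genes of antigen presentation, many of which interferon induces, were lower in mutant colons with smaller values. For MHC class I presentation and the immunoproteasome, 12 of 13 measured genes had a log2 fold change below 0 and 6 (46.2%) did not overlap, all lower, against 4.19% of all probe sets. The median was -0.24, and none passed. H2-K1, a class I heavy chain, read 3434, 2860.2 and 2959.5 in mutant, 2485.1, 3982.9 and 3447.9 in heterozygous and 4153.3, 3787.2 and 4167.3 in wild-type colons (log2 fold change -0.38, SE 0.161). Psme1, a subunit of the proteasome activator PA28, read 2387.4, 2466.4 and 2312.8 in mutant and 3414.6, 2814 and 2850.3 in wild-type colons (-0.32, SE 0.128). Tap2, one chain of the peptide transporter into the endoplasmic reticulum, was at -0.36, its partner Tap1 at -0.77 and the immunoproteasome subunit Psmb8 at -0.82. The list's mean was 10.46, 10.22 and 10.26 in mutant and 10.65, 10.55 and 10.58 in wild-type colons, so all 3 mutants lay below all wild-type mice, with heterozygous 1 lowest at 10.06. That was so for 4 of the 39 lists with more than 1 measured gene. The 6 measured genes of MHC class II presentation were all below 0 with a median of -0.37, led by H2-DMa, which loads peptides, at -0.62 and Cd74, the invariant chain, at -0.49. That median was -0.15 without mutant replicate 3.

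Markers of T cells and cytotoxic lymphocytes followed the same mice. Of 8 measured, 7 were below 0 with a median of -0.80, and none passed. Cd8a, the co-receptor of cytotoxic T cells, read 134, 75.1 and 56.7 in mutant, 40.5, 266.1 and 174.9 in heterozygous and 267, 201.1 and 210.4 in wild-type colons (log2 fold change -1.23, SE 0.483). Cd3d, a chain of the T cell receptor complex, read 159.6, 99 and 93.2 in mutant, 84.9, 245.3 and 216.2 in heterozygous and 245.9, 203.3 and 209.7 in wild-type colons (-0.82, SE 0.321). For both genes the mutant and wild-type colons did not overlap, and heterozygous 1 was lowest. Ccl5, a chemokine of these cells, was at -1.26 and Gzma, a granzyme, at -1.22. Gzmb, another granzyme, was too dim on average to be tested, with 26.8, 12.5 and 11 in mutant and 83.1, 104.3 and 69 in wild-type colons. The summed signal of the list was 1179.5 to 3649.1 in mutant and 2535.2 to 4867.2 in wild-type colons, while Cd4 and Cd8b1 were near background in both groups. The median was -0.54 without mutant replicate 3. In whole tissue, fewer cells of a type and less RNA per cell cannot be told apart.

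In the lists of interferon-induced, MHC class I, MHC class II and T cell genes alike, the 3 arrays with the lowest means were heterozygous 1, mutant 2 and mutant 3. Their part in each other's results was not tested. Macrophage markers were below 0 in 14 of 14 measured genes with a median of -0.28, and 2 did not overlap, both lower (14.3%, against 4.19% of all probe sets). Fcgr3, an IgG receptor, was at -0.56, Lyz2, a lysozyme, at -0.36, and C1qa, of complement, at -0.26. Their summed signal was 8409 to 11940.1 in mutant and 9785.6 to 14293.3 in wild-type colons, and Itgam was near background. The median was -0.15 without wild-type replicate 1 and -0.18 without mutant replicate 3. Products of plasma cells stayed near wild-type values, with Jchain, the joining chain of polymeric antibodies, at -0.13 and Igha, the IgA heavy chain, at -0.06. Ighm on its leading probe set read 466.1, 518 and 431.4 in mutant, 255.9, 418.3 and 352.8 in heterozygous and 851.2, 1078.1 and 667.6 in wild-type colons (log2 fold change -0.84, SE 0.197, adjusted p = 0.998).

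**Figure D4:**
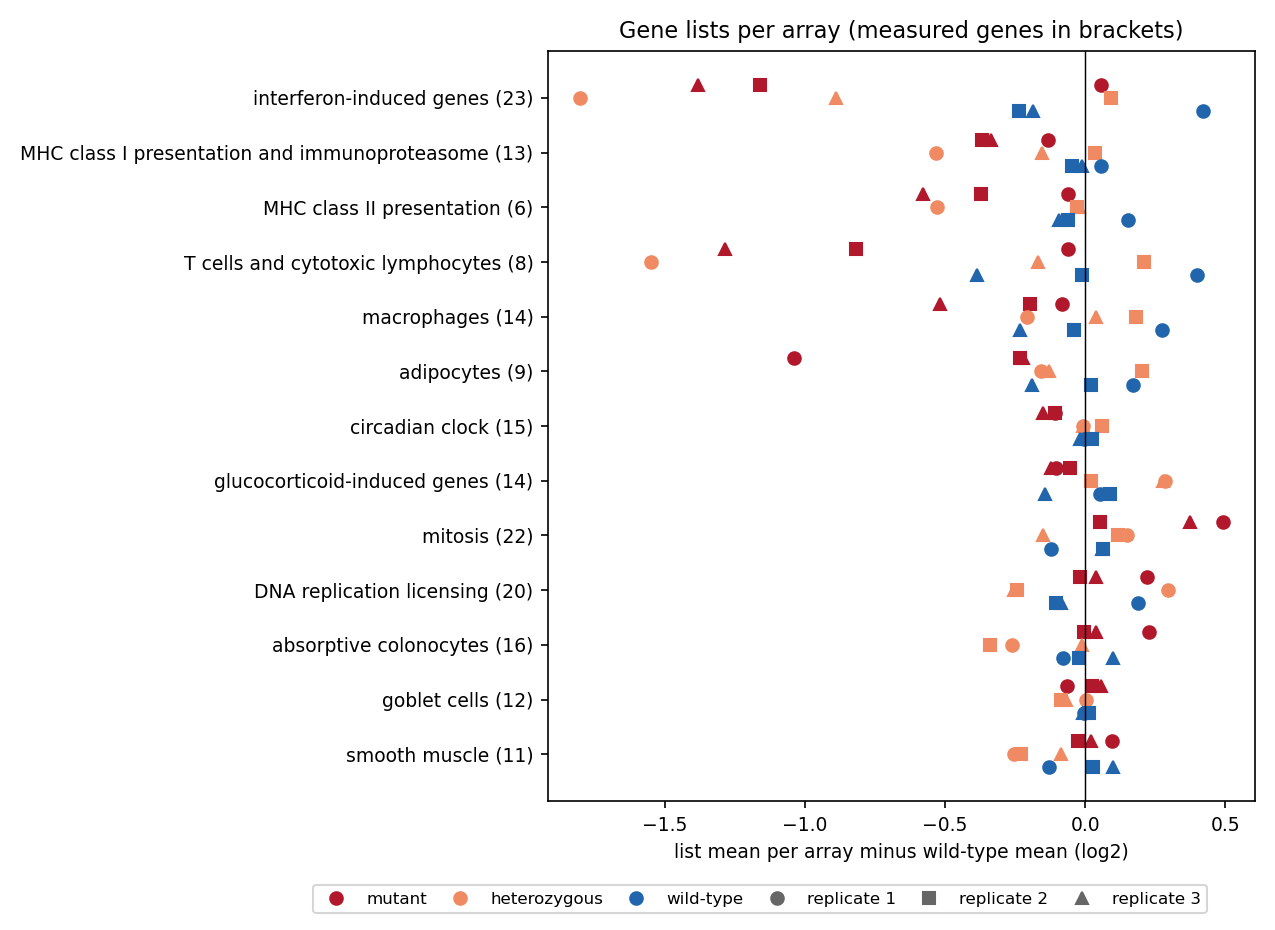
Mean log2 level of each gene list in each array, as the difference from the mean of the 3 wild-type arrays (horizontal axis), for 13 lists (vertical axis, measured genes in brackets). Colours are genotypes and symbols replicate numbers; mutants 2 and 3 and heterozygous 1 lie lowest in the interferon, MHC and T cell lists, mutant 1 lies apart in the adipocyte list, and the 3 mutants are the lowest arrays in the circadian clock list.

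Adipocyte markers were below 0 in 9 of 9 measured genes with a median of -0.59, and here mutant 1 stood apart. Fabp4, a lipid-binding protein abundant in fat cells, read 1812.9, 3203 and 3393.6 in mutant and 5022.7, 4487.6 and 3556.4 in wild-type colons (log2 fold change -0.60, SE 0.230, adjusted p = 0.998). Plin4, a lipid droplet protein, read 57.8, 69 and 85.4 in mutant and 105.3, 137.6 and 106.5 in wild-type colons (-0.61, SE 0.201). The groups did not overlap for these genes, 2 of the 9 (22.2%, against 4.19% of all probe sets on the lower side). Adipoq, the hormone adiponectin, did overlap, with 312.7, 865 and 909.8 in mutant and 1233.1, 1140.5 and 747.3 in wild-type colons. The list's mean was 9.26, 10.07 and 10.08 in mutant and 10.47, 10.32 and 10.11 in wild-type colons, and its summed signal 8791 to 15278 in mutant and 15094.1 to 21857 in wild-type colons. Without mutant replicate 1 the median was -0.19, and without the 3 arrays numbered 1 it was -0.06. How much fat was attached to each piece of colon is not given in the labels.

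In the list of circadian clock genes, as in that of adipocyte markers, the 3 mutants were the lowest of all 9 arrays, although the shift was small. Of the 39 lists with more than 1 measured gene, 4 had means lower in all 3 mutant than in all 3 wild-type colons, and 0 had them higher. The 4 were MHC class I presentation, adipocyte markers, clock genes and the TRIM family, whose mean includes Trim16. How many such lists would arise by chance was not tested. The mean log2 level was 8.91, 8.91 and 8.87 in mutant, 9.01, 9.08 and 9.01 in heterozygous and 9.02, 9.04 and 9.00 in wild-type colons. Of 15 genes 11 were below 0 with a median of -0.14, 3 of 15 did not overlap, 2 higher and 1 lower (against 4.23% and 4.19% of all probe sets), and none passed. Tef, an output factor of the clock, read 929.2, 936.7 and 905.8 in mutant, 1770.1, 1488.8 and 1438.8 in heterozygous and 1024.1, 1572.6 and 1207.9 in wild-type colons (log2 fold change -0.45, SE 0.142). Per2, a repressor arm gene, was at -0.70, Hlf, an output factor, at -0.40 and Per1 at -0.34. Arntl, the activator that is known to peak opposite to the Per genes, went the other way, with 233.7, 230.8 and 273.9 in mutant and 177.2, 104.3 and 192.8 in wild-type colons (0.63, adjusted p = 0.998). In heterozygous against wild-type colons the list's median had the other sign, 0.16. The labels give no time of day for tissue collection.

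Glucocorticoid-induced genes, which the daily rise of corticosterone also drives, were below 0 in 11 of 14 with a median of -0.10. Tsc22d3, known as GILZ, read 654.3, 629.2 and 802.8 in mutant, 1165.1, 991.8 and 1354.8 in heterozygous and 1017.9, 957.2 and 902.5 in wild-type colons (log2 fold change -0.46, SE 0.141). Klf9, a transcription factor, was at -0.19 and Errfi1, a feedback inhibitor of the EGF receptor, at -0.24. Without the 3 arrays numbered 1 the list split into 7 above and 7 below 0, with a median of -0.03. Cytosolic heat shock genes were below 0 in 12 of 13, but the median was -0.09.

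The lists for the colon's own epithelium and muscle had medians near 0. They were 0.004 for 16 absorptive colonocyte markers, -0.005 for 12 goblet cell markers and -0.02 for 11 enteroendocrine markers. For 11 smooth muscle markers the median was -0.01 and for 13 fibroblast markers -0.07. Of the smooth muscle markers 2, with Myocd at 0.33, were higher without overlap (18.2%, against 4.23% of all probe sets). Scnn1a, a subunit of the epithelial sodium channel, read 308.9, 326.8 and 230.2 in mutant and 165.8, 216.2 and 216.2 in wild-type colons, without overlap (log2 fold change 0.48, SE 0.191, adjusted p = 0.998). Enteric neuron and glia markers were below 0 in 8 of 9 with a median of -0.07, and Vip, a neuropeptide, was at -0.29. Oxidative phosphorylation had a median of 0.02 over 25 genes, NRF2 and glutathione genes 0.04 over 20, cholesterol and fatty acid synthesis 0.06 over 16, fatty acid oxidation -0.06 over 18, collagens -0.03 over 14 and Wnt targets 0.003 over 15. In all, 43 lists with 785 genes were read, 561 of the genes were measured, and Trim16 was the only one that passed on its leading probe set.

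**Figure D5:**
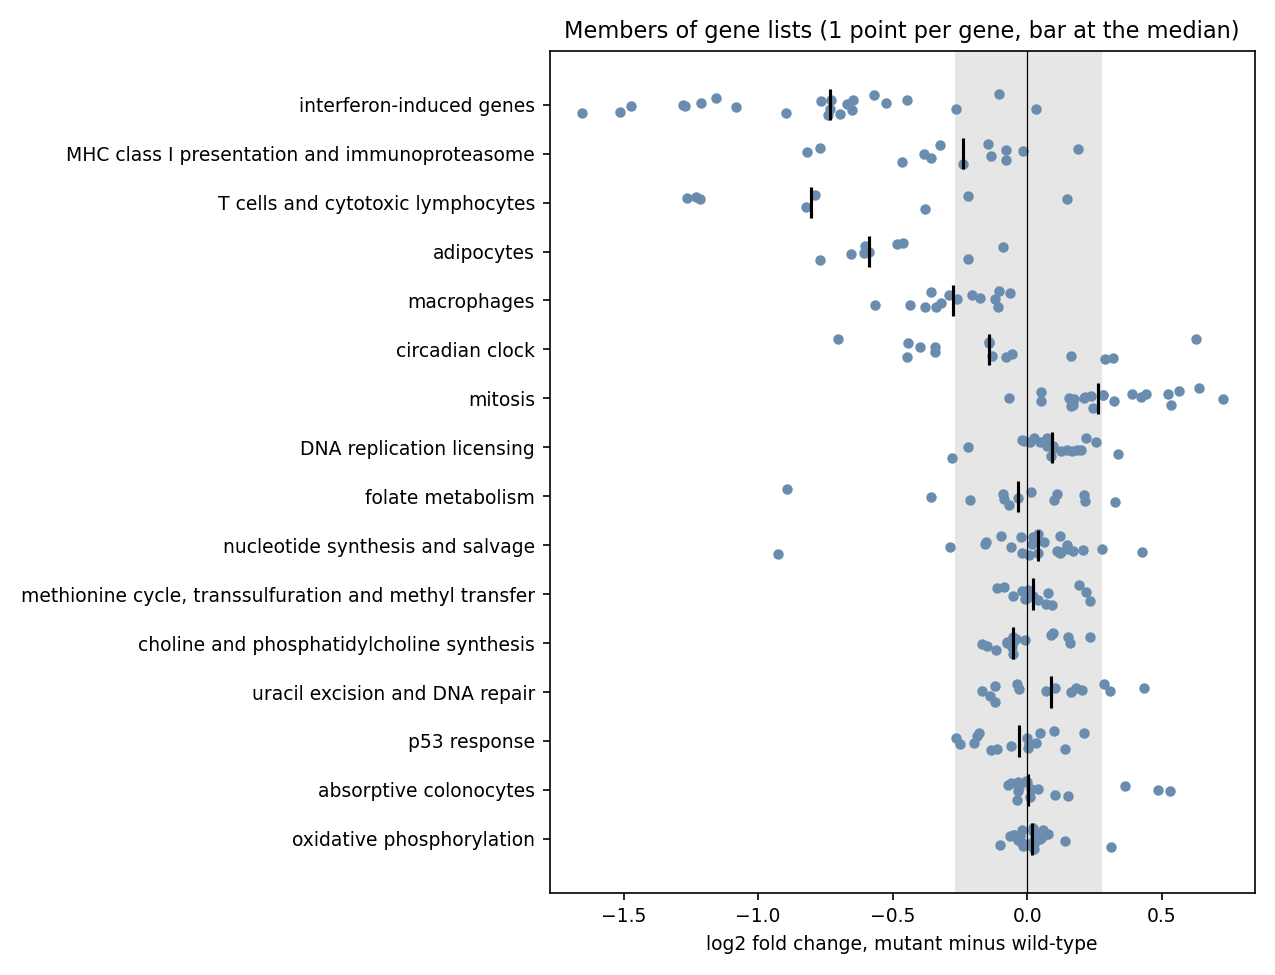
Log2 fold change of mutant minus wild-type colons (horizontal axis) for the measured members of 16 gene lists (vertical axis), 1 point per gene with a bar at each list's median. The grey band spans the 5th to 95th percentile of all tested probe sets, -0.27 to 0.27; most interferon, T cell and adipocyte genes lie below it, 11 of the 22 mitosis genes lie above it, and the folate-fed lists lie within it for all but a few genes.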

How the data were processed

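Total RNA from each proximal colon was amplified with a NuGEN Ovation kit, labelled with biotin and hybridized to an Affymetrix mouse array, per the labels' protocols. The values deposited by the authors are linear intensities, 1 per probe set and array, made with GCOS per the submitters' processing notes, for which no version or scaling is stated in the sources read. The trimmed mean signal was 500.11 to 500.15 on every array, so the deposited values already stood on a common scale. After adding 16 and taking log2, all 9 arrays were quantile normalized and probe sets with a mean under the 40th percentile (a linear signal of 75.5) were left out, which left 13576 of 22626; adding 16 shrinks fold changes of dim probe sets. A mean over all arrays keeps a probe set that is bright in 1 genotype only. Limma 3.58.1 (R 4.3.3; lmFit, eBayes with trend, no covariate) fitted all 9 arrays, and the mutant minus wild-type contrast was adjusted by Benjamini-Hochberg over all tested probe sets. The fit was tested on simulated data.

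Genes were named by the platform's annotation, and probe sets with several symbols (448 of those tested) or none (639) were not named. Chromosomes and gene order came from RefSeq's table for GRCm38.p6. List members were read on the tested probe set with the highest mean. Genes for the text were drawn by a rule. It took Shmt1, the probe sets that passed and measured neighbours of Shmt1. In each direction it took the 15 genes with the smallest p and the 5 with the largest fold change among non-overlapping probe sets. In each list it took at most the 4 genes lowest in p. Not all genes so drawn are described. Among those left out on the higher side are Svil, Pa2g4, Ciao2a, Vapb, Stambp, Vamp3, Rasd2 and Tacc3. Car1, Fabp6, Mrpl55, Hand1, Shmt2, Tyms, Tk1, Bhmt, Bhmt2, Ung, Plk1, Usp18, Rtp4, Oas2, Tap1, Gzma, Gzmb, Cd4, Cd8b1, Itgam, Adipoq and Arntl fall outside this rule and were picked with their values in view. The comparison, the lists and the tests were chosen with earlier results of these data known. Because many genes and lists were read, single values that did not pass are descriptions. Replicate numbers in the titles were checked for pairing: deviations of same-numbered mutant and wild-type arrays correlated at 0.292, 0.0124 and 0.463 across probe sets. Those of differently numbered arrays correlated at -0.507 to 0.275. In each genotype the beta-actin ratio fell from array 1 to array 3. The labels do not name pairs, so the main fit left the numbers out. With the number as a block, 983 probe sets had an unadjusted limma p under 0.05, against 521 without it. What arrays of the same number share was not tested. Figures were drawn in Python 3.11.15 (matplotlib 3.10.9).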

Additional observations from a re-analysis of the deposited data

How the results depend on the processing

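Shmt1 on its first probe set and Trim16 passed under each of the 18 alternatives, with log2 fold changes of -2.25 to -2.11 for Shmt1 and -3.53 to -3.42 for Trim16 when 1 of the 6 arrays was left out, and -2.32 to -1.85 and -3.74 to -2.89 under the other 12. The count of probe sets that passed was 3, and 2 to 3 when 1 array was left out. It was 9 with array weights (3 higher, 6 lower, with Hk1, Gid4 and Psmd3 among them), 9 without the 3 arrays numbered 1 (all lower, with Irgm2, Ccl5 and Ighm among them) and 5 with the replicate number as a block (all lower, with 2210407C18Rik and Psmd3 among them). The labels do not say that the numbers pair the mice. The cause of these changes was not tested. None of the named genes followed changed sign under the alternatives. Many were named because their groups did not overlap or their p was low in these same arrays. Their signs could therefore hardly change, and this is no separate check. Of 754 list medians under alternatives, 24 moved by more than the spread between arrays. With 3 arrays a group and 1 tissue piece per mouse, small changes cannot be seen, and signals under about 75.5 were not tested.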
